A study of Mus musculus with 5 samples.

Results

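The glutathione peroxidases and peroxiredoxins are the enzymes that reduce hydrogen peroxide and organic hydroperoxides, and their mRNA levels were described in colon tumors of mice that did or did not express human SIGLEC12 in the gut epithelium. The members were 10 genes taken by symbol from the 52143 genes of the deposited table: the 6 peroxidases Gpx1, Gpx2, Gpx3, Gpx4, Gpx7 and Gpx8 and the 4 peroxiredoxins Prdx1, Prdx2, Prdx5 and Prdx6. All 10 symbols were found, each once. Gpx3 entered the list partly because it separated the 2 groups, so its difference is a description and carries no test.

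The Control group held 2 tumors (replicates 1 and 4) of Villin1-Cre-ERT littermates, and the SIGLEC12 group held 3 tumors (replicates 2, 3 and 4) of SIGLEC12-Villin1-Cre-ERT mice, which carry 1 floxed human SIGLEC12 copy behind a CAG promoter and a removable EGFP stop cassette at ROSA26. The Villin1 promoter restricts the tamoxifen-dependent Cre to epithelium of the small and large intestine, so stromal, muscle and immune cells of the tumor keep the stop cassette. All mice were female and 8 weeks old at the start, and all of them, Controls included, received tamoxifen for 5 days, a single azoxymethane injection of 10 mg/kg, and 4 cycles of 2.0% dextran sodium sulfate for 5 days with 14 days of recovery, before tumors were taken at day 87. Each replicate is a separate mouse, and a further Control mouse that the study counts was not analysed here. The human transgene was not among the mouse genes measured, so the genotype labels were not checked by its expression.

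Glutathione peroxidases use glutathione to turn peroxides into water or alcohols, and glutathione reductase restores the glutathione at the cost of NADPH. Peroxiredoxins do the same work with a reactive cysteine that most of them regenerate through thioredoxin. In the colon both families meet peroxide made by epithelial NADPH oxidases, by mitochondria and by the inflammatory cells that dextran sodium sulfate attracts. In some glutathione peroxidases the active residue is selenocysteine, which is placed at a TGA codon that is read through in place of stopping translation, and in others it is cysteine.

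The active-site codon separates the 6 peroxidases, and its surroundings are shown because the groups formed by this codon are used to order the results. Each window of 27 bases is the coding strand of GENCODE M21 on GRCm38, 5′ to 3′, with the codon of the active residue in capitals.
Gpx1: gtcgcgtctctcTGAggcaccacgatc
Gpx2: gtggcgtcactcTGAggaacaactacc
Gpx3: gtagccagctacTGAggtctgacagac
Gpx4: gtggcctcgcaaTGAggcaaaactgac
Gpx7: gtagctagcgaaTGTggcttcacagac
Gpx8: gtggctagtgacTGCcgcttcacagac
The TGA of Gpx1 is codon 47 (exon 1, chr9:108339439-108339465, plus strand) and that of Gpx2 is codon 40 (exon 1, chr12:76795244-76795270, minus strand). In Gpx3 it is codon 73 (exon 2, chr11:54907244-54907270, plus strand), and in Gpx4 it is also codon 73 of the transcript used (exon 3, chr10:80054725-80054751, plus strand). Gpx7 (codon 56, exon 2, chr4:108403418-108403444, minus strand) and Gpx8 (codon 79, exon 2, chr13:113045649-113045675, minus strand) have a cysteine codon, TGT or TGC, at the same place. All 4 peroxiredoxins also have TGT or TGC at the peroxide-attacking position, so 4 of the 10 members need selenium for their active site.

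Levels are given as log2(TPM + 1), the deposited scale, where TPM is transcript abundance per length, scaled to a fixed total, so that levels of different genes can be set side by side. The number of reads behind a value cannot be recovered from TPM and is unknown. Protein-coding genes held 5.7% and 6.73% of all TPM in Control replicates 1 and 4, against 8.75% to 9.72% in the SIGLEC12 libraries, and 87.2% of the 10338 genes tested had the higher mean in SIGLEC12. The difference of each member is therefore also given after each sample was rescaled to the same protein-coding total, called rescaled here, which moved the median log2 fold change of all tested genes from 0.38 to 0.01. Control replicate 1 stood apart from the other 4 libraries: 14 markers of columnar epithelium summed to 501 TPM in it and to between 1465 and 2146 in the others, and 12 markers of squamous epithelium summed to 3020 TPM against 421 to 1144. Epcam, carried by columnar epithelium of the colon, was present in every sample, at 29.3 TPM in Control replicate 1 and between 78.4 and 132 TPM elsewhere, while the intestinal transcription factor Cdx2 was at 0.137 TPM in Control replicate 1 and between 0.634 and 3.11 TPM elsewhere. The colon label thus had less marker support in Control replicate 1 than in the other libraries. The part of this difference in makeup in the results was not tested, and the difference of each tested member is given with and without this library.

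The members covered a wide span of levels. By mean TPM over the 5 samples the order was Prdx6 (115 TPM), Gpx2 (84.8), Gpx1 (64.1), Prdx1 (51.6), Prdx2 (29.9), Prdx5 (19.2), Gpx4 (13.6), Gpx3 (3.70), Gpx8 (1.23) and Gpx7 (0.273). Compared within each of the 5 samples, Prdx1 was always above Prdx2, Gpx4 above Gpx3 and Gpx8 above Gpx7. Every other pair of neighbours changed order in some sample, so those places are not fixed by these data. Gpx1, Gpx2, Prdx1 and Prdx6 were the 4 with the highest means, and the endoplasmic reticulum enzymes Gpx7 and Gpx8 were lowest.

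**Figure D1:**
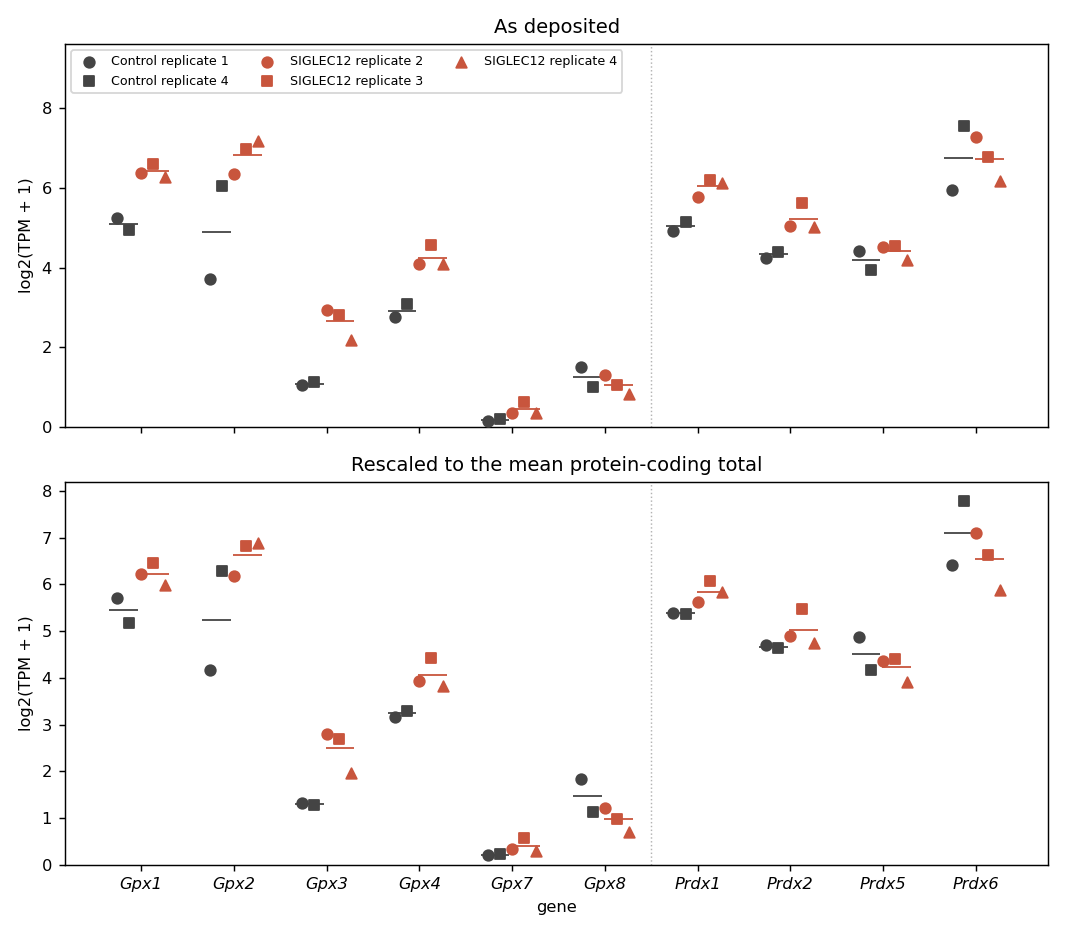
Level of each of the 10 members in log2(TPM + 1) in each of the 5 samples, 1 point per tumor and a line at each group mean, as deposited and after rescaling to the same protein-coding total. Gpx1, Gpx3, Gpx4, Prdx1 and Prdx2 have all 3 SIGLEC12 points above both Control points on both scales, while Gpx8, Prdx5 and Prdx6 overlap, and Gpx2 overlaps only after rescaling.

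Of the 9 members that passed the filter of at least 1 TPM in at least 2 samples, none was past an adjusted p of 0.05 and 2-fold, as was the case for 0% of the 10338 genes tested with limma. When the threshold was an unadjusted p up to 0.05 with a change of 2-fold or more, 5 members were higher in SIGLEC12 (Gpx1, Gpx2, Gpx3, Gpx4 and Prdx1) where 3.97% of all tested genes were, and 0 were lower where 0.445% were. Since Gpx3 was chosen on this contrast, nothing is read from its place in that count. With a filter of at least 5 TPM in at least 2 samples, the same 5 members passed this unadjusted threshold. So did 353 of the 3476 genes then tested, in the same direction. Apart from Gpx3, 5 of 8 members had an unadjusted p under 0.05, set beside 34.3% of all tested genes. Rescaling left 1 member past the unadjusted threshold, which was Gpx3 itself, where 0.368% of genes were higher and 1.37% lower, and 2 of 8 members at an unadjusted p under 0.05 against 10.8%. Without Control replicate 4, whose absence leaves a lone Control sample that is assumed to vary like the others, Gpx1, Gpx2, Gpx4 and Prdx1 (and Gpx3, from which nothing is read) were higher past the adjusted threshold, as were 10.5% of all tested genes, and without Control replicate 1 no member was.

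Apart from Gpx3, the SIGLEC12 and Control values did not overlap for 5 of the 8 tested members, all higher in SIGLEC12, but on the deposited scale this held for 54.1% of all tested genes in that direction and 1.67% in the other. After rescaling it held for 4 of the 8, again all higher, against 15.6% of all genes higher and 16.8% lower. Means were higher in SIGLEC12 for 6 of these 8 as deposited and for 5 rescaled, beside 87.2% and 51.1% of all tested genes. Their median log2 fold change was 0.95 as deposited and 0.41 rescaled, beside 0.38 and 0.01 for all tested genes. The deposited background depended on level: the median was 0.60 for the 3476 genes with at least 5 TPM in at least 2 samples. The 4 tested peroxidases other than Gpx3 had a median of 1.32 (0.80 rescaled) and the 4 peroxiredoxins one of 0.57 (0.04 rescaled). In a mixed tumor sample, fewer cells of a type and less RNA per cell cannot be told apart.

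Gpx1, the ubiquitous cytosolic and mitochondrial peroxidase, was higher in every SIGLEC12 tumor than in the Control tumors, at 76.3 to 95.5 TPM against 36.9 and 30.0 TPM. Its gene (ENSMUSG00000063856, chr9:108338903-108340343, plus strand) stood at 5.24 and 4.95 in Control replicates 1 and 4 and at 6.37, 6.59 and 6.27 in SIGLEC12 replicates 2, 3 and 4. The groups did not overlap, and each SIGLEC12 value lay more than 1 log2 unit above the higher Control. The means were 5.10 ± 0.21 (SD, n = 2) and 6.41 ± 0.16 (n = 3), a log2 fold change of 1.31 (SE 0.24, adjusted p = 0.0974 in limma). Rescaled, the values were 5.71 and 5.18 against 6.22, 6.46 and 5.99, still without overlap, and the log2 fold change was 0.77 (SE 0.27, adjusted p = 0.457 in limma). Without Control replicate 1 the deposited difference was 1.46, and without Control replicate 4 it was 1.17 with a limma adjusted p of 0.0445.

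Gpx4, which reduces phospholipid hydroperoxides inside membranes and holds back the iron-dependent cell death called ferroptosis, differed by nearly the same amount at a lower level. The gene (ENSMUSG00000075706, chr10:80047166-80056439, plus strand) had Control values of 2.75 and 3.09 and SIGLEC12 values of 4.08, 4.56 and 4.09. All 3 SIGLEC12 tumors were about 1 log2 unit or more above both Controls. The means of 2.92 ± 0.24 (SD, n = 2) and 4.24 ± 0.27 (n = 3) gave a log2 fold change of 1.32 (SE 0.25, adjusted p = 0.0974 in limma). After rescaling, 3.17 and 3.30 stood against 3.93, 4.42 and 3.82, a difference of 0.82 (SE 0.23, adjusted p = 0.457 in limma), and the groups again did not overlap. Leaving out Control replicate 1 gave a deposited difference of 1.15, and leaving out Control replicate 4 gave 1.49 with a limma adjusted p of 0.039.

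Gpx2, the peroxidase that is largely restricted to the epithelium of the gut and is strongest in crypts, had the largest difference of the tested members and also the widest spread among Controls. Its gene (ENSMUSG00000042808, chr12:76792333-76795554, minus strand) stood at 3.72 and 6.05 in Control replicates 1 and 4, and 6.34, 6.96 and 7.16 in the SIGLEC12 replicates. Control replicate 1 was more than 2 log2 units below every other sample, and Control replicate 4 was close to the lowest SIGLEC12 sample. The log2 fold change was 1.94 (SE 0.66, adjusted p = 0.111 in limma), and rescaled it was 1.41 (SE 0.63, adjusted p = 0.465 in limma) with overlapping groups, since Control replicate 4 at 6.28 then exceeded SIGLEC12 replicate 2 at 6.19. Control replicate 1 decided the size of this value: without it the difference was 0.78 (0.35 rescaled), and without the other Control it was 3.10 (2.46 rescaled), with adjusted p = 0.0384 in limma and 0.0499.

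The columnar marker sum, like Gpx2, was lowest in Control replicate 1. Per 1000 TPM of the 14 columnar markers, Gpx2 amounted to 24.3 and 44.5 TPM in the Controls and to 49.6, 83.0 and 66.4 TPM in the SIGLEC12 tumors. The groups did not overlap on this ratio, as on the deposited but not the rescaled values. How many of all genes separate on a ratio to these markers was not counted. The lowest SIGLEC12 ratio was close to that of Control replicate 4. Of the 13 columnar markers tested, 11 had the higher mean in SIGLEC12 (10 rescaled), beside 87.2% and 51.1% of all tested genes. In that direction 8 had groups that did not overlap (2 rescaled), beside 54.1% and 15.6%. In the other direction 1 had such groups, beside 1.67%. It was Slc26a3, at 9.02 and 23.5 TPM in the Controls against 4.80, 3.10 and 6.08 TPM. Car1 overlapped, and was lowest in SIGLEC12 replicate 4, at 22.6 TPM against 30.6 TPM in Control replicate 1. Gpx2 lies wholly within Fntb on the other strand, at 1.12 to 2.06 TPM, and whether counting used strand is not stated. The part of columnar content in the Gpx2 difference was not tested.

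Gpx3, the secreted peroxidase of plasma and extracellular fluid, was low in all tumors and higher in each SIGLEC12 tumor. The gene (ENSMUSG00000018339, chr11:54902453-54910377, plus strand) had values of 1.05 and 1.14 in the Controls, equal to 1.07 and 1.20 TPM, and of 2.93, 2.82 and 2.19 in SIGLEC12, equal to 6.63, 6.05 and 3.55 TPM. The 2 Controls were nearly the same, and SIGLEC12 replicate 4 was the lowest of its group. The means were 1.09 ± 0.06 (SD, n = 2) and 2.65 ± 0.40 (n = 3), and the log2 fold change was 1.55 (SE 0.25), or 1.19 rescaled. At so low a level the pseudocount holds the fold change down, and with a pseudocount of 0.1 in place of 1 it was 2.11. Leaving out a library gave deposited differences between 1.41 and 1.78, with 1.51 without Control replicate 1.

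Fibroblast markers, like Gpx3, summed higher in each SIGLEC12 tumor, but not in the same order within that group. The 10 genes summed to 12.6 and 13.9 TPM in the Controls and 65.2, 22.0 and 30.0 TPM in SIGLEC12 replicates 2, 3 and 4. Gpx3 was at 6.05 TPM in replicate 3 and 3.55 TPM in replicate 4. All 8 markers tested had the higher SIGLEC12 mean (7 rescaled), beside 87.2% and 51.1% of all tested genes. Groups did not overlap for 5 (3 rescaled), all higher, beside 54.1% and 15.6%. Gpx3 per 1000 TPM of these markers was 84.7 and 86.5 in the Controls and 102, 275 and 118 in the SIGLEC12 tumors. The ratio was thus higher in each SIGLEC12 tumor, by the least in replicate 2, which had the most fibroblast marker RNA. Since Gpx3 was chosen on this contrast, nothing is read from that separation. The share of all genes that separate on this ratio was not counted. Per 1000 TPM of columnar markers the Gpx3 groups overlapped, with 2.14 and 0.821 against 4.10, 4.06 and 1.65. Which cells gave the Gpx3 RNA was not tested.

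The genes whose values over the 5 samples lay nearest to those of Gpx3, after each gene was centred on its own mean, were Mt2, Psme1, Lgmn, Mt1 and Blvrb, out of 9221 other protein-coding genes. Mt2, a metallothionein that binds zinc and copper, was nearest, with a root mean square difference of 0.146 log2 units and values of 4.35 and 4.74 against 6.19, 6.17 and 5.77. Psme1, a subunit of the proteasome activator PA28, was at 0.155, and the lysosomal protease Lgmn at 0.252. The metallothionein Mt1 and the biliverdin reductase Blvrb were both at 0.255. Likeness to Gpx3 fixes their direction, so their own differences, 1.50 for Mt2, 1.33 for Psme1, 1.09 for Lgmn, 1.32 for Mt1 and 1.26 for Blvrb, are no separate result.

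The cysteine peroxidases Gpx7 and Gpx8, which sit in the endoplasmic reticulum and take part in oxidative protein folding, were the lowest of the members. Gpx8 (ENSMUSG00000021760, chr13:113042753-113046410, minus strand) had values of 1.50 and 1.0 in the Controls and 1.31, 1.06 and 0.83 in SIGLEC12, and the groups overlapped. Its log2 fold change was -0.19 (SE 0.23, adjusted p = 0.55 in limma), -0.51 rescaled (adjusted p = 0.475 in limma) and 0.06 without Control replicate 1, which held its highest value. Per 1000 TPM of fibroblast markers Gpx8 was at 145 and 72 TPM in the Controls and at 22.6, 49.5 and 25.7 TPM in SIGLEC12. That ratio was lower in every SIGLEC12 tumor, but its divisor, the marker sum, was higher in each. The sum was 22.0 to 65.2 TPM against 12.6 and 13.9 TPM, while Gpx8 itself overlapped. How many of all genes separate on this ratio was not counted. Gpx7 (ENSMUSG00000028597, chr4:108400390-108406961, minus strand) was below the filter, at 0.112 and 0.147 TPM in the Controls and 0.285, 0.536 and 0.286 TPM in SIGLEC12. All 3 SIGLEC12 values were above both Controls, with a difference of 0.27 in log2 values (0.18 rescaled), but at such levels it was not tested.

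**Figure D2:**
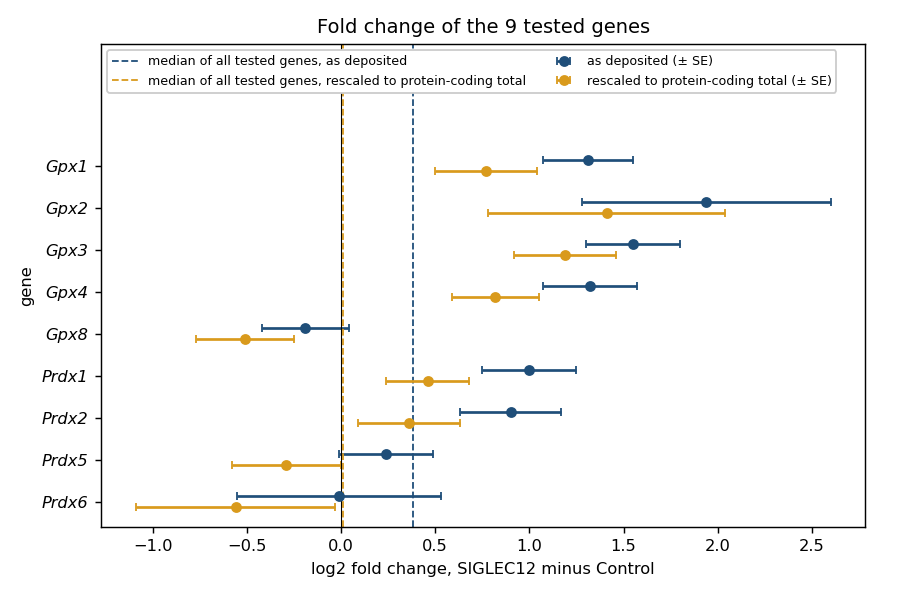
Difference between SIGLEC12 and Control in log2(TPM + 1) for each tested member with its standard error, as deposited and rescaled, with the median of all 10338 tested genes at 0.38 and 0.01 as reference. Gpx1, Gpx2, Gpx3 and Gpx4 lie between 1.31 and 1.94 as deposited and between 0.77 and 1.41 rescaled, whereas Gpx8, Prdx5 and Prdx6 lie between -0.19 and 0.24 as deposited and between -0.56 and -0.29 rescaled. Gpx3 is shown without a test.

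Prdx1 and Prdx2 are the abundant cytosolic peroxiredoxins that are recycled by thioredoxin, and both had the higher values in SIGLEC12. Prdx1 (ENSMUSG00000028691, chr4:116685544-116700822, plus strand) stood at 4.91 and 5.14 in the Controls and at 5.77, 6.20 and 6.11 in SIGLEC12. Its groups did not overlap, with means of 5.03 ± 0.16 (SD, n = 2) and 6.03 ± 0.23 (n = 3), and the log2 fold change was 1.0 (SE 0.25, adjusted p = 0.0974 in limma). Rescaled, the difference was 0.46 (SE 0.22, adjusted p = 0.466 in limma), also without overlap. Leaving out Control replicate 1 gave 0.89, and leaving out Control replicate 4 gave 1.12 at a limma adjusted p of 0.0495.

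Prdx2 (ENSMUSG00000005161, chr8:84969587-84974834, plus strand), which is also a major protein of red blood cells, had Control values of 4.25 and 4.40 and SIGLEC12 values of 5.04, 5.61 and 5.02. SIGLEC12 replicate 3 was highest, and all 3 were above both Controls. The log2 fold change was 0.90 (SE 0.27, adjusted p = 0.1 in limma) as deposited and 0.36 (SE 0.27, adjusted p = 0.573 in limma) rescaled, where the groups still did not overlap but SIGLEC12 replicate 4 at 4.74 lay next to Control replicate 1 at 4.71. Red blood cell markers summed to between 0.533 and 1.41 TPM in the Controls and between 2.49 and 10.5 TPM in SIGLEC12. The most abundant of them, the beta globin gene Hbb-bs, was at 0.655 and 0.272 TPM in the Controls and 1.55, 2.24 and 7.04 TPM in SIGLEC12, and the red cell membrane gene Slc4a1 was below 0.1 TPM in every sample. Without Control replicate 1 the Prdx2 difference was 0.82 (0.41 rescaled). The part of red blood cells in it was not tested.

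Prdx5, found in mitochondria, peroxisomes and cytosol, differed little between the groups. The gene (ENSMUSG00000024953, chr19:6906697-6910106, minus strand) stood at 4.41 and 3.94 in the Controls and at 4.51, 4.55 and 4.18 in SIGLEC12. SIGLEC12 replicate 4 fell between the Controls, and the log2 fold change of 0.24 (SE 0.25, adjusted p = 0.488 in limma) became -0.29 (SE 0.29, adjusted p = 0.667 in limma) after rescaling. Without Control replicate 1 the difference was 0.47 (0.06 rescaled). Its transcripts share 360 bases with those of Trmt112, which overlaps Prdx5 on the other strand and was at 3.34 to 6.21 TPM, up to 36.2% of the Prdx5 level, so some Prdx5 reads could not be assigned with certainty if counting ignored strand.

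Prdx6, a peroxiredoxin that also has phospholipase activity and draws on glutathione and not on thioredoxin, had the highest mean over all 5 tumors and did not separate the groups. In SIGLEC12 replicates 3 and 4 it was below Gpx2, with 107 and 70.4 TPM against 124 and 142 TPM. The gene (ENSMUSG00000026701, chr1:161240112-161251219, minus strand) had its lowest and highest values both among the Controls, 5.94 in replicate 1 and 7.55 in replicate 4, with 7.26, 6.76 and 6.16 in SIGLEC12. The log2 fold change was -0.01 (SE 0.54, adjusted p = 0.985 in limma), or -0.56 rescaled (SE 0.53, adjusted p = 0.65 in limma), and it depended on which Control was present, at -0.82 without replicate 1 (-1.25 rescaled) and 0.79 without replicate 4 (0.13 rescaled). Per 1000 TPM of columnar markers Prdx6 amounted to 120 and 127 TPM in the Controls and to 94.3, 72.1 and 32.8 TPM in the SIGLEC12 tumors. On that ratio it was lower in each SIGLEC12 tumor, where Gpx2 was higher in each. The marker sum itself was higher in each SIGLEC12 tumor, at 1491 to 2146 TPM against 501 and 1465 TPM, and the share of all genes that separate on such a ratio was not counted. For Gpx1, Gpx4, Prdx1 and Prdx2 the same ratio overlapped between the groups.

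**Figure D3:**
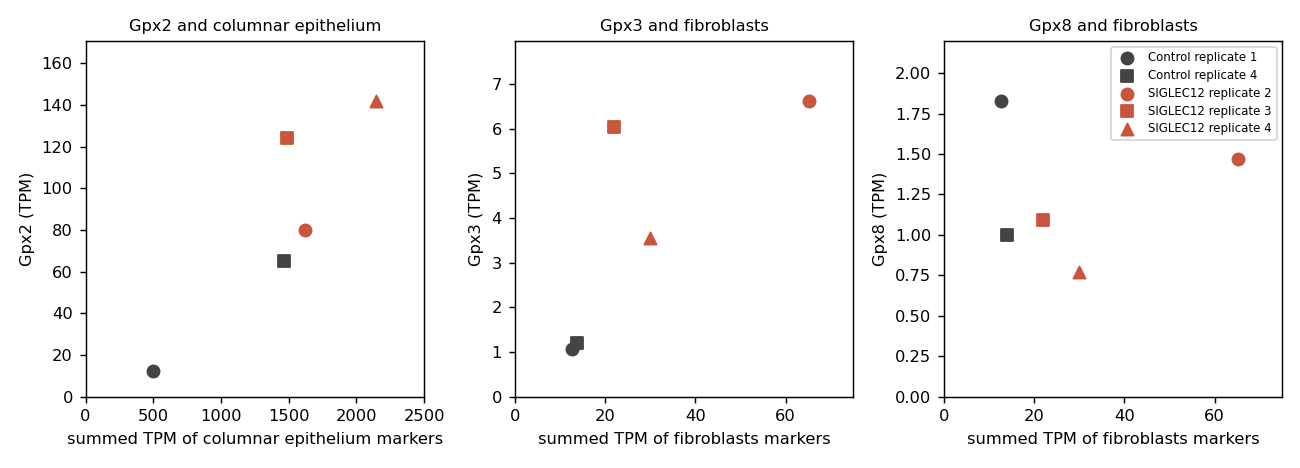
TPM of Gpx2 against the summed TPM of the columnar markers, and TPM of Gpx3 and of Gpx8 against the summed TPM of the fibroblast markers, 1 point per tumor, with color for group and shape for replicate. Control replicate 1 lies apart at 501 TPM of columnar markers and 12.2 TPM of Gpx2, Gpx3 is at 1.07 and 1.2 TPM in the Controls and 3.55 to 6.63 TPM in SIGLEC12, and Gpx8 overlaps between the groups.

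The makeup of each family was then compared within samples, since a share of the family's summed TPM does not depend on how a sample was scaled. The 6 peroxidases summed to 57.9 and 105 TPM in the Controls and to 186, 250 and 239 TPM in SIGLEC12. Gpx1 and Gpx2 together made up most of it in every tumor. Gpx1 led in Control replicate 1 with 63.8% against 21.1% for Gpx2, and Gpx2 led in Control replicate 4 with 62.1% against 28.5%. In the SIGLEC12 tumors Gpx1 held 43.8%, 38.3% and 31.9% and Gpx2 held 43.1%, 49.6% and 59.5%. The shares of both genes therefore differed more between the 2 Controls than between the group means.

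The Gpx3 share was 1.85% and 1.15% in the Controls and 3.57%, 2.42% and 1.48% in SIGLEC12, with overlap, although its level was higher in every SIGLEC12 tumor. Gpx4 held 6.71% to 9.93% in all samples and Gpx7 at most 0.215%. Only the Gpx8 share had groups that did not overlap, at 3.17% and 0.953% in the Controls against 0.791%, 0.436% and 0.323% in SIGLEC12. Its divisor, the peroxidase sum, was higher in each SIGLEC12 tumor, while the level of Gpx8 itself overlapped. How many of all genes would separate as a share of that sum was not counted. The 4 peroxiredoxins summed to 128 and 255 TPM in the Controls and 260, 250 and 187 TPM in SIGLEC12. Prdx6 had the largest share in every tumor, from 37.6% in SIGLEC12 replicate 4 to 73% in Control replicate 4, and no peroxiredoxin share separated the groups. Prdx1 followed with 22.8% and 13.5% in the Controls and 20.7%, 29.1% and 36.5% in SIGLEC12.

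**Figure D4:**
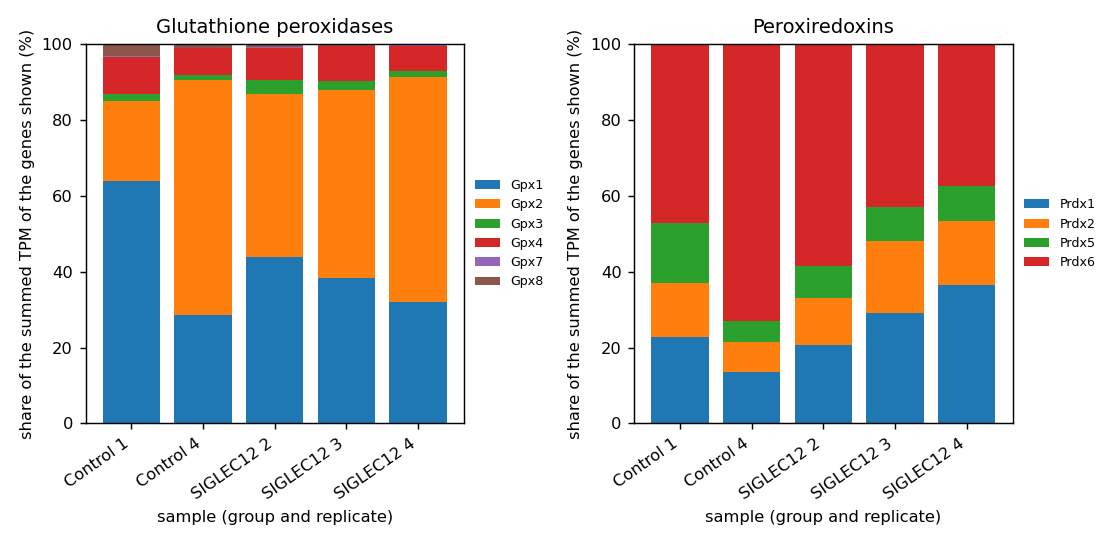
Share of each member in the summed TPM of its family (%), stacked for each of the 5 tumors, peroxidases and peroxiredoxins apart. Gpx1 and Gpx2 fill most of the peroxidase bar in each tumor, with 63.8% Gpx1 in Control replicate 1 and 62.1% Gpx2 in Control replicate 4, and Prdx6 is the largest peroxiredoxin share throughout.

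The other genes of these families and of the surrounding pathway were read from 7 lists, and no gene of any list passed the adjusted threshold with limma in the 5 samples. Without Control replicate 4, where 10.5% of all tested genes were higher and 1% lower past it, every list had 1 to 3 genes higher past it, and the NADPH oxidase list also had 2 lower. Without Control replicate 1 no list had any, and the list medians were 0.10 for the NADPH oxidases and 0.42 to 0.71 for the others, beside 0.26 for all tested genes. Among the other family members, Gpx5, Gpx6 and Prdx6b stayed below 0.1 TPM in every sample. The mitochondrial Prdx3 had values of 2.33 and 2.35 against 2.91, 3.09 and 3.08 (log2 fold change 0.68, 0.22 rescaled), and the endoplasmic reticulum Prdx4 had 1.23 and 1.77 against 2.09, 2.65 and 2.79 (1.01, 0.62 rescaled). Both were higher without overlap between the groups on both scales, as were 54.1% of all tested genes as deposited and 15.6% rescaled. Prdx4 was the only family gene outside the members past the unadjusted threshold, where 3.97% of all tested genes were higher. It was not past it after rescaling.

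The NADPH oxidases upstream, which make superoxide or hydrogen peroxide, were mixed. Of 13 genes for NADPH oxidases and their partners 10 were tested, 7 with the higher mean in SIGLEC12 and 3 with the lower, and 4 and 2 of them had groups that did not overlap, where 54.1% and 1.67% of all tested genes did. Rescaled, 6 had the higher and 4 the lower mean, with 2 and 2 that did not overlap, beside 15.6% and 16.8%. Cyba, the membrane subunit shared by several NADPH oxidases, stood at 2.01 and 3.42 against 3.86, 4.91 and 4.11 (log2 fold change 1.58, SE 0.49, adjusted p = 0.101 in limma; 1.10 rescaled). Noxo1, the organizer of the colonic oxidase Nox1, was at 1.74 and 3.26 against 3.40, 3.85 and 3.36 (1.04, 0.58 rescaled). In both genes Control replicate 1 was the lowest sample by more than 1 log2 unit, and without it the differences were 0.87 for Cyba and 0.28 for Noxo1 (0.47 and -0.12 rescaled). All 3 tested superoxide dismutases and catalase genes were without overlap as deposited and none was after rescaling, among them Sod1 (log2 fold change 0.91, 0.38 rescaled) and catalase, Cat (0.67, 0.23 rescaled).

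Genes that keep the members reduced had medians above the 0.38 of all tested genes. Only the thioredoxin and glutaredoxin list was also above the 0.60 of the genes with at least 5 TPM in at least 2 samples. For glutathione synthesis and recycling, 8 of 9 tested genes had the higher mean (5 rescaled), beside 87.2% and 51.1% of all tested genes. The median log2 fold change was 0.43, or 0.13 rescaled beside 0.01 for all tested genes. Glutathione synthetase Gss had 2.25 and 3.08 against 3.53, 3.63 and 4.05 (1.08, SE 0.31, adjusted p = 0.0976 in limma; 0.59 rescaled), and glutathione reductase Gsr had 2.42 and 3.62 against 3.99, 4.04 and 4.38 (1.12, SE 0.37, adjusted p = 0.108 in limma; 0.62 rescaled). Without Control replicate 1 they differed by 0.66 and 0.52. These 2 of 9 were the genes of the list past the unadjusted threshold, where 3.97% of all tested genes were higher. Neither was past it rescaled. Pgd, which makes NADPH in the pentose phosphate pathway and was the most abundant of the list, differed by 0.67 (0.15 rescaled). For thioredoxin and glutaredoxin the count with the higher mean was 8 of 9 (7 rescaled), beside the same 87.2% and 51.1%. The median was 0.68 (0.21 rescaled), and none of these genes was past the unadjusted threshold. Thioredoxin itself, Txn1, differed by 0.78 (0.24 rescaled), its reductase Txnrd1 by 1.08 (0.61 rescaled, and 0.22 without Control replicate 1) and the mitochondrial glutaredoxin Glrx5 by 0.88 (0.50 rescaled).

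Selenoproteins and the factors that insert selenocysteine were listed because Gpx1, Gpx2, Gpx3 and Gpx4 depend on that machinery. All 17 tested genes of 18 had the higher mean as deposited, 12 without overlap, with a median log2 fold change of 0.65, beside 87.2%, 54.1% and 0.38 for all tested genes. Rescaled, 13 had the higher and 4 the lower mean, 8 were without overlap above the Controls and 2 below, and the median was 0.22, beside 51.1% higher means, 15.6% and 16.8% without overlap and a median of 0.01. Selenof, a selenoprotein of the endoplasmic reticulum, stood at 3.70 and 3.82 against 4.71, 5.33 and 5.15 (1.31, SE 0.26, adjusted p = 0.0974 in limma; 0.78 rescaled), the same size of difference as Gpx1 and Gpx4. Msrb1, which repairs oxidized methionine, was at 2.40 and 2.39 against 3.29, 3.48 and 3.23 (0.93, 0.46 rescaled). Selenop, which carries selenium between tissues and was the most abundant of the list, overlapped between the groups, with 4.07 and 5.01 against 5.91, 5.72 and 4.34 (0.78, 0.25 rescaled, and 0.31 without Control replicate 1).

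Targets and regulators of Nrf2, the transcription factor that drives many antioxidant genes, showed 12 of 14 higher means and a median of 0.61 as deposited. All tested genes had 87.2% higher means and a median of 0.38, and those with at least 5 TPM in at least 2 samples a median of 0.60. Rescaled, it was 8 of 14 with a median of 0.22, beside 51.1% and 0.01. Groups did not overlap for 10, all higher, beside 54.1% of all tested genes. Rescaled, 3 lay above the Controls and 1 below, beside 15.6% and 16.8%. None of the 14 passed the unadjusted threshold on either scale. The ferritin heavy chain Fth1 differed by 0.82 (0.27 rescaled) and the glutathione transferase Gstp1 by 0.92 (0.40 rescaled). The core of the antioxidant response element that Nrf2 binds, TGACNNNGC, was searched on both strands of the 300 bases around annotated starts, 250 before and 50 after, in RefSeq promoters of GRCm38.p6. It was present in 1 of 12 promoters of 9 members, that of Prdx1, and in 12.4% of the 32851 promoters in the table. Prdx6 was not in that table. The Prdx1 match is shown with its core in capitals, at chr4:116685466-116685474, on the strand opposite to the gene and 133 bases before the start.
Prdx1 promoter match: tacgggggaTGACTCAGCgctttccct

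**Figure D5:**
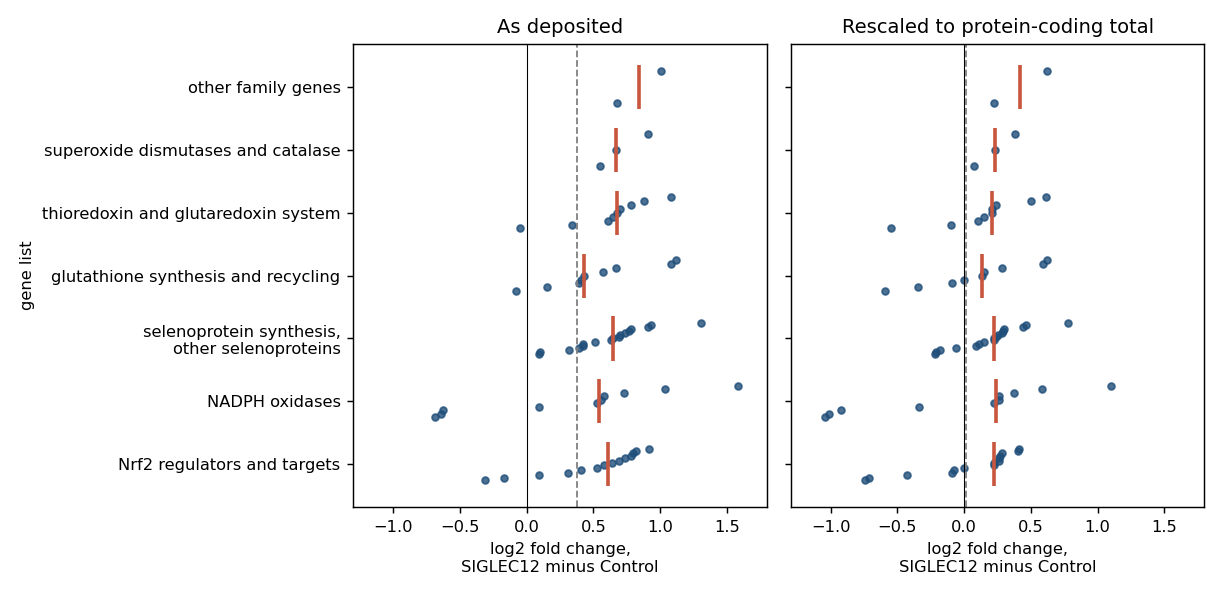
Difference between SIGLEC12 and Control in log2(TPM + 1) of each tested gene in the 7 pathway lists, as deposited and rescaled, 1 point per gene, with a vertical bar at each list's median and a dashed line at the median of all tested genes (0.38 and 0.01). The medians of the 7 pathway lists lie between 0.43 and 0.85 as deposited and between 0.13 and 0.42 rescaled.

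Transcript length moved with these differences. The 2305 shortest of the tested protein-coding genes, with a median coding transcript of up to 1126 bases, had a median log2 fold change of 0.55 (0.14 rescaled), and the 2302 longest one of 0.27 (-0.10 rescaled). Of the 10 members, 8 had a median coding transcript of at most 1126 bases, and Prdx2 and Prdx6 were in the next longer set. With the length trend removed from the rescaled values, Gpx1 differed by 0.65, Gpx2 by 1.30, Gpx4 by 0.71, Prdx1 by 0.34 and Prdx2 by 0.29. These genes kept their direction. Gpx3, chosen on this contrast, differed by 1.07. Gpx8 then stood at -0.62, Prdx5 at -0.41 and Prdx6 at -0.62. What links length to the difference was not tested.

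Markers of the remaining cell types were also summed. Smooth muscle markers summed to 55.2 to 132 TPM with the groups overlapping, and myeloid markers to 6.22 and 14.2 TPM in the Controls and 7.63 to 30.5 TPM in SIGLEC12. Neutrophil markers summed to 21.8 and 25.3 TPM against 24.9 to 54.0 TPM, with Mpo below 0.1 TPM everywhere. Ly6g alone was 44.8 of the 54.0 TPM, in SIGLEC12 replicate 4. S100a8 and S100a9 stood there at 4.65 and 2.97 TPM, against 9.99 and 5.73 TPM in Control replicate 1 and 3.52 and 3.46 TPM in Control replicate 4. Both were highest in SIGLEC12 replicate 3, at 18.0 and 10.3 TPM. Endothelial, T cell and adipocyte markers each summed to at most 5.39 TPM in any sample, nerve and glia markers to at most 3 TPM, and B and plasma cell markers to at most 10.3 TPM. The part of these cells in the member levels was not tested.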

How the data were processed

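Bulk RNA-seq of colon tumors was read from 1 deposited table of 52143 genes in 5 columns. Per the labels, stranded total RNA libraries were quantified by the authors with kallisto 0.45.0 on GRCm38; the strand setting is not given in the sources used here, nor whether the technical libraries that the methods mention were averaged. The deposited values are log2 of TPM plus 1, since every sample has the same sum once they are turned back into TPM. No columns were identical. Depth is unknown.

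Genes with at least 1 TPM in at least 2 samples (10338) were tested in R 4.3.3 by limma 3.58.1 (lmFit and eBayes with a trend, Benjamini-Hochberg over all of them), checked on simulated data. SE is that of limma. Values were also rescaled to 1 protein-coding total per sample, by factors of 0.818 to 1.395. Coordinates, lengths and coding windows came from GENCODE M21, which held 98.45% of the gene IDs. Alternatives were other scalings, filters, a pseudocount of 0.1 and leaving out each library.

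The members, marker lists and pathway lists were chosen with earlier results of these data known. Named pathway genes were the most abundant of each list and the 2 with the largest differences, and the genes nearest to Gpx3 were the first 5 by root mean square difference, without provisional names.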

Additional observations from a re-analysis of the deposited data

How the results depend on the processing

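Gpx1, Gpx2, Gpx4, Prdx1 and Prdx2 were higher in SIGLEC12 under all 18 alternatives. Their log2 fold changes were 0.51 to 1.46, 0.35 to 3.10, 0.64 to 1.49, 0.34 to 1.13 and 0.15 to 1.0. Means were higher for 87.2% of all tested genes as deposited and 51.1% rescaled, and how many keep their direction throughout was not counted. Gpx3 ranged from 1.03 to 2.11, but its direction was fixed by the choice of the gene. The count of members higher past the adjusted threshold was 0. It stayed 0 without any 1 of the SIGLEC12 libraries, on both scales, where at most 1 of all tested genes was higher past it. The count past the unadjusted threshold was 5, Gpx3 included, beside 410 of the 10338 tested genes. It was 1, namely Gpx3, under median-ratio size factors, quantile normalization, rescaling, and rescaling with the length trend removed. Under these, 38 to 50 of all tested genes were higher past it. Nothing is read from the place of Gpx3 in these counts. Leaving out a SIGLEC12 library gave 3 to 5 on the deposited values and 1 rescaled, with 3 (Gpx1, Gpx3 and Gpx4) without SIGLEC12 replicate 3 or 4. Of all tested genes, 379 to 491 were then higher past it as deposited and 30 to 68 rescaled.

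Of the 7 pathway lists, in the order in which the plot of the lists shows them, 1, 1, 1, 2, 3, 3 and 2 genes were higher past the adjusted threshold without Control replicate 4, and 2 NADPH oxidase genes were lower, against 0 in all 5 samples.

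The directions of the other 3 tested members were not stable. Gpx8 ranged from -0.87 to 0.06 when a library was left out, with 0.06 without Control replicate 1; on the deposited values alone the lowest was -0.44, without Control replicate 4. Prdx5 was at -0.30 with median-ratio size factors, -0.34 with quantile normalization, -0.29 rescaled and -0.41 with the length trend removed, and between -0.64 and 0.47 when a library was left out, with -0.36, -0.38 and -0.13 rescaled without SIGLEC12 replicates 2, 3 and 4. Prdx6 lay between -1.25 and 0.79 when a library was left out, with -0.82 without Control replicate 1, 0.79 without Control replicate 4, 0.27 without SIGLEC12 replicate 4 and 0.13 without Control replicate 4 after rescaling. The cause was not tested. A filter at 5 TPM lowered the adjusted p of Gpx1, Gpx4 and Prdx1 to 0.0537 with fewer genes tested, and no filter raised it to 0.252.

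No paired analysis was possible because replicate 4 is the single number that both groups carry. With 2 Controls, of which replicate 1 has another epithelial makeup, and with no depth in TPM, the sizes of all differences remain imprecise, and scaling and group cannot be told apart where the protein-coding share differs between them.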

Other observations

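In the NADPH oxidase list 3 of the 10 tested genes had the lower mean in SIGLEC12, Duox1, Cybb and Duoxa1, which are named here after their values were seen. Duox1, the oxidase that releases hydrogen peroxide at the surface of epithelia, had values of 1.92 and 1.05 in the Controls and 1.01, 0.65 and 0.73 in SIGLEC12, a difference of -0.69 (adjusted p = 0.145 in limma) or -1.01 rescaled (adjusted p = 0.457 in limma), the second past the unadjusted threshold, as were 1.37% of all tested genes in that direction. Without Control replicate 1, the highest sample, it was -0.25. Its maturation factor Duoxa1 differed by -0.63 (-1.04 rescaled) with overlapping groups, and by 0.07 without Control replicate 1. Cybb, the oxidase of phagocytes, had 1.51 and 1.01 in the Controls and 0.80, 0.78 and 0.30 in SIGLEC12, a difference of -0.64 (adjusted p = 0.132 in limma) or -0.92 rescaled. The SIGLEC12 values of Duox1 and Cybb all lay below both Controls, as they did for 1.67% of all tested genes as deposited and 16.8% rescaled.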
